A study of Mus musculus with 12 samples.

Results

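The enzymes of purine synthesis were followed in FL5.12 MycER cells, a mouse lymphoid precursor line of BALB/c origin that needs interleukin 3, by RNA-seq in 4 conditions. They comprised 10 genes of the 21671 in the expression table, chosen by name for their place in the pathway, and all 10 passed the filter on low values. Every cell carried MycER, a fusion of MYC with the hormone-binding part of the oestrogen receptor, which was expressed constitutively from a retroviral vector and becomes active when 4-hydroxytamoxifen (OHT) is added. Untreated cells received no agent. OHT cells were primed with 100 nM OHT for 48 h and kept in it for a further 24 h. IACS cells were not primed and received 135 nM of IACS-010759, an inhibitor of mitochondrial complex I, for 24 h, and OHT_IACS cells were OHT-primed and then received the inhibitor as well. Each condition had 3 replicates. OHT-treated cells without MycER were not analysed here, so that OHT itself and active MycER cannot be told apart.

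Purine nucleotides are built by adding carbon and nitrogen atoms, in a fixed order, to phosphoribosyl pyrophosphate (PRPP), a phosphorylated ribose, until inosine monophosphate (IMP) is complete. IMP is the branch point from which cells make the adenine nucleotide AMP and the guanine nucleotide GMP. Dividing lymphoid cells depend on the pathway for nucleic acids, and genes of nucleotide synthesis are long known as targets of MYC.

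The members fall into 3 steps. Prps1 makes PRPP. Ppat, Gart, Pfas, Paics, Adsl and Atic carry PRPP to IMP. Ppat is the amidotransferase of the committed step, Gart, Paics and Atic are enzymes with several activities, Pfas is the formylglycinamidine ribonucleotide synthase, and Adsl is the adenylosuccinate lyase, which also acts in the AMP branch. Impdh1 and Impdh2 are isozymes of IMP dehydrogenase, the step that commits IMP to guanine nucleotides, and Gmps, the GMP synthetase, completes GMP.

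The E-box CACGTG, a sequence that MYC with its partner MAX can bind, was looked for in the promoters of these genes, taken from RefSeq (GRCm38.p6) as the 250 bases before and 50 after each start. Promoters were found for 9 of the 10 members, all but Pfas. The E-box, which reads the same on both strands, was present in 3 of the 9. Among all genes with a promoter in the table it was present in 2187 of 27025, or in 7.15% of the 32851 windows. These genes were not matched to the members for expression or GC content. The stretches below are shown because they hold the matches in this gene group. Capitals mark the E-box, and each stretch lies on the plus strand, 5′ to 3′.
Paics: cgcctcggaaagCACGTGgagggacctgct
Atic: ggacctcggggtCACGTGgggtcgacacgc
Impdh2: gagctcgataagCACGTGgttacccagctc
The Paics stretch is chr5:76951087-76951116, with the E-box 203 bases before the Paics start and inside an exon of Ppat. The Atic stretch is chr1:71557137-71557166, with the E-box 7 bases before the start. The Impdh2 stretch is chr9:108560314-108560343, with the E-box 110 bases before the RefSeq start and inside the longer untranslated region of the GENCODE transcript. None of the 3 genes passed the test used here in any comparison of conditions, although Paics and Impdh2 passed as higher after OHT with voom, on RPKM as deposited and without OHT replicate 2, and Impdh2 and Atic passed as lower in comparisons with the inhibitor once the library total was a covariate. No E-box lay in the windows searched for the 4 members that passed after OHT, although the Paics match lies in an exon of Ppat. These 4 members were Ppat, Gmps (chr3:63963633-64021554), Adsl (chr15:80948490-80970947) and Prps1 (chrX:140456603-140476140), each with its RefSeq span in GRCm38.p6. The Ppat window, chr5:76951529-76951828, did not reach the Paics match. The Gmps window, chr3:63975893-63976192, lies inside the Gmps span, so the start of that span was not searched. Whether an E-box bears on the response to OHT was not tested. A GC box (GGGCGG, either strand) was present in the promoters of all 9 members, against 10324 of the 27025 genes (35.66% of windows). A CCAAT box (either strand) was present in 5 of 9, against 11096 genes (37.41% of windows). The motif TGATGNAAN, of the kind bound by ATF4, was found on either strand in 1 of 9, that of Prps1. Of the 27025 genes 1215 held it (3.95% of windows).

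Library totals ran from 10376530 to 14550158 reads, of which 4199265 to 5762338 lay on genes. The smallest were OHT replicates 1 and 3 and IACS replicate 3. Levels are given as RPKM, the reads on a gene divided by its length in kilobases and by the library total, scaled so that the libraries share a common median ratio. The line keeps few of the markers of its labelled type, since 3 of 11 B-cell progenitor genes reached 1 RPKM (Cd79a, Cd79b and Il3ra), and Pax5, Dntt, Rag1 and Il7r were at 0 in every library. The summed RPKM of these 11 genes was 11 to 13.1 in untreated cells, 7.98 to 9.28 with OHT, 11.6 to 12.5 with IACS and 11.3 to 12.4 with both. Of 7 myeloid genes 5 reached 1 RPKM. Their summed level was 44.6 to 47.7 RPKM in untreated cells, 23.8 to 27.3 with OHT, 40.1 to 47.9 with IACS and 25.0 to 25.1 with both, and the part of this shift in the results was not tested. Of 3 T cell genes none reached 1 RPKM. Of 3 erythroid genes Hba-a1 had no entry under that name, and of the other 2 only Klf1 reached 1 RPKM. The summed RPKM of these 2 was 13.0 to 13.7, 9.11 to 10.01, 6.51 to 7.28 and 4.92 to 5.35 in the 4 conditions. In these bulk samples fewer cells of a type and less RNA per cell cannot be told apart. Myc itself, whose reads from the endogenous gene and the fusion cannot be told apart, fell by 0.81 on the log2 scale with OHT, while Ncl, a known MYC target, rose by 0.31. Of the other 2 MYC targets looked at, Odc1 passed at 0.23 but not with the library total as a covariate (0.02, limma adjusted p = 0.615) or without the 3 smallest libraries, and Nop56 did not pass (0.21, limma adjusted p = 0.091). With IACS-010759 the stress genes Trib3, Ddit3 and Asns rose by 1.96, 1.17 and 0.52 on the log2 scale, and with OHT they rose by 0.68, 0.22 and 0.33.

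In untreated cells the most abundant member was Impdh2 at 82.7 ± 2.39 RPKM (SD, n = 3) and the least abundant was its isozyme Impdh1 at 12.4 ± 0.471. Between them, in falling order of mean RPKM, lay Paics at 52.0, Gart at 43.1, Adsl at 36.4, Pfas at 33.3, Ppat at 30.6, Prps1 at 27.5, Atic at 24.3 and Gmps at 20.3. No neighbours in this order overlapped in their 3 untreated libraries. With OHT the order changed at a single place, where Ppat at a mean of 39.4 RPKM stood above Pfas at 35.1, although the 2 overlapped. Gart with Adsl, Adsl with Ppat and Atic with Gmps also overlapped in that condition. With IACS-010759 alone the order was as in untreated cells, with overlap of Pfas with Ppat and of Ppat with Prps1, and in OHT_IACS cells only Pfas and Ppat overlapped.

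**Figure D1:**
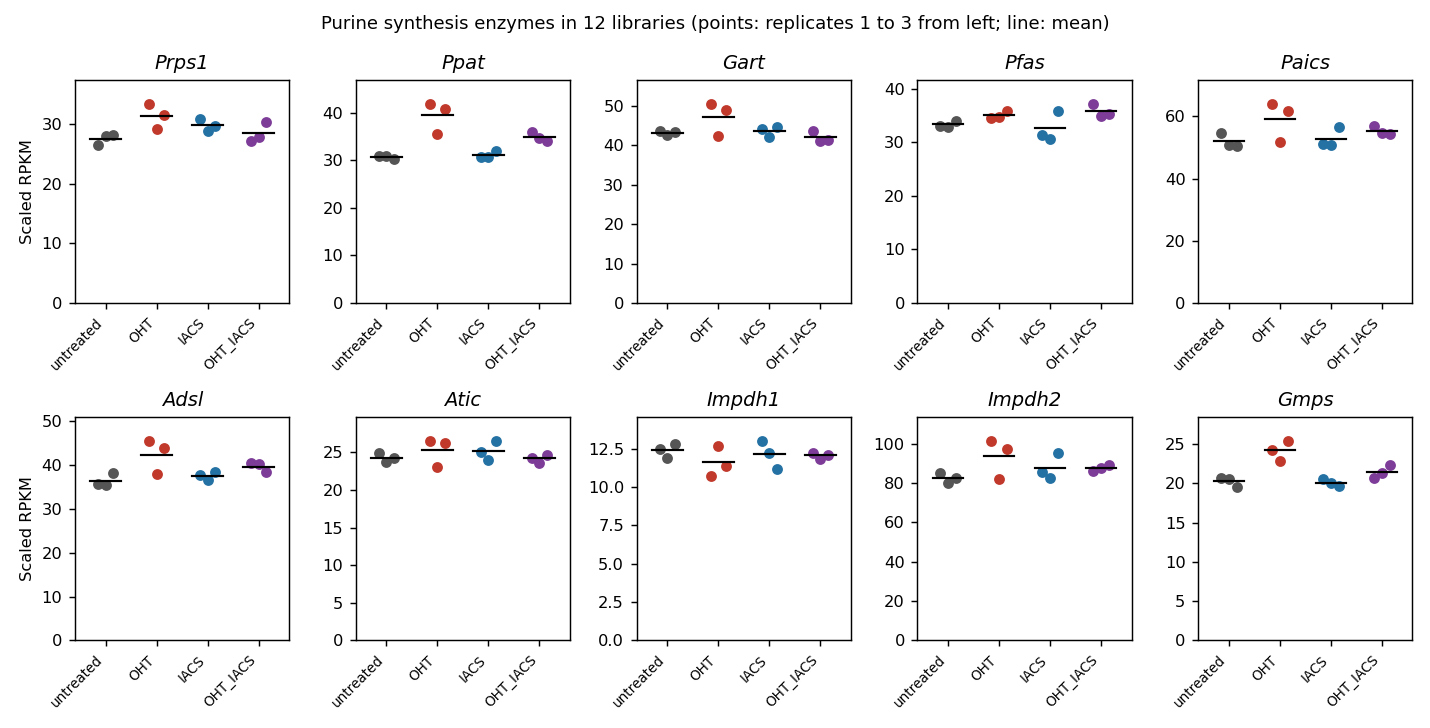
RPKM (scaled, linear axis from 0) of the 10 purine synthesis enzymes in 12 libraries. Points are replicates 1 to 3 from left to right in each condition and lines are means. The 3 OHT libraries of Ppat and of Gmps lie above all 3 untreated libraries, and OHT replicate 2 is the lowest OHT library for 8 of the 10 genes.

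The first comparison addressed the response to MycER activation, OHT against untreated cells. Ppat, Gmps, Adsl and Prps1 rose, by 28.3%, 19.4%, 16.3% and 14.1%, and no member fell. These 4 of 10 genes passed at an adjusted p under 0.05 (limma, Benjamini-Hochberg over 9745 genes), where 36.4% of all genes passed and 18.2% passed as higher, so that the share in either direction was near that of all genes. The median log2 fold change of the 10 members was 0.18, beside 0.01 for all genes tested. With voom, and on RPKM as deposited, 6 passed, Paics and Impdh2 besides these 4, where 3838 and 3546 of all 9745 genes passed. As set out below, the calls of Adsl and Prps1 were lost when library total was taken into account.

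Ppat, the amidotransferase that sets the committed step, measured 30.9, 30.8 and 30.2 RPKM in the untreated libraries and 41.9, 35.6 and 40.8 with OHT. The 2 conditions did not overlap, and OHT replicate 2 was the lowest of the treated. Its log2 fold change was 0.36 (SE 0.058, 95% interval 0.24 to 0.48, limma adjusted p = 0.000357). Gmps, the last enzyme on the way to GMP, measured 20.7, 20.5 and 19.6 RPKM in untreated cells and 24.3, 22.9 and 25.4 with OHT. Again every OHT library was above every untreated one. The log2 fold change was 0.26 (SE 0.049, 95% interval 0.15 to 0.36, limma adjusted p = 0.00137).

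Adsl, the lyase shared by IMP and AMP synthesis, measured 35.6, 35.4 and 38.1 RPKM in untreated cells and 45.5, 37.9 and 43.8 with OHT. OHT replicate 2 lay just below untreated replicate 3, so the conditions overlapped. Its log2 fold change was 0.22 (SE 0.064, limma adjusted p = 0.0174). Prps1, which supplies PRPP, measured 26.4, 28.0 and 28.1 RPKM in untreated cells and 33.4, 29.2 and 31.5 with OHT, with no overlap. Its log2 fold change was 0.19 (SE 0.059, limma adjusted p = 0.0229). Prps1 has a related locus, Prps1l3, listed at 33.6 RPKM in untreated cells, and how reads that fit both were counted is not given in the sources used here.

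The other 6 members did not pass the test. Paics, the bifunctional carboxylase and synthetase, measured 54.6, 50.8 and 50.5 RPKM in untreated cells and 64.1, 51.7 and 61.6 with OHT (log2 fold change 0.18, limma adjusted p = 0.0834). Impdh2 measured 85.1, 80.3 and 82.7 RPKM against 101.4, 81.9 and 97.3 (0.17, limma adjusted p = 0.126), and Gart, which holds the transformylase of the third step, 43.5, 42.6 and 43.3 against 50.5, 42.2 and 48.8 (0.13, limma adjusted p = 0.138). In each of these 3 genes OHT replicates 1 and 3 were above all untreated libraries and OHT replicate 2 was within or below their range. Pfas was at 32.9 to 33.9 RPKM in untreated cells and at 34.6 to 35.9 with OHT, a log2 fold change of 0.08 (95% interval -0.05 to 0.20, limma adjusted p = 0.321) without overlap. Non-overlap in this direction was found for 4 of the 10 members (Ppat, Gmps, Prps1 and Pfas) and for 22.5% of all genes. Atic, which closes the purine ring, had a log2 fold change of 0.05 (95% interval -0.07 to 0.18), and Impdh1 was the only member below 0, at -0.10 (95% interval -0.24 to 0.04).

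The median level of the members moved with library size. Over the 12 libraries, the median log2 ratio of the 10 genes to their untreated mean was 0.27 and 0.22 in OHT replicates 1 and 3, whose totals were 10376530 and 10770476 reads, but 0.05 in OHT replicate 2, at 13956222 reads. IACS replicate 3, at 11133789 reads, stood at 0.09, while IACS replicates 1 and 2, at 13076509 and 13729131, stood at 0.04 and -0.02. The OHT_IACS libraries had totals from 11792608 to 11913079 reads and ratios from 0.05 to 0.08. Reads of densely covered genes rose less than in proportion to the library total. The median slope of log2 reads on log2 library total within conditions was 1.38 for 4659 genes under 0.1 reads per base and 0.18 for 84 genes with at least 1 read per base. Impdh2, at 1.1 reads per base the densest member, held between 1665 and 1916 reads in all 12 libraries, with a slope of 0.44. The slopes of Paics, Atic, Gart, Adsl and Ppat were 0.47, 0.66, 0.68, 0.71 and 0.72. Those of Pfas, Prps1 and Gmps, at 0.9, 0.9 and 0.96, were closer to proportion, and that of Impdh1 was 1.62. When the logarithm of each library's total entered the fit as a covariate, 2 members passed after OHT. Of all 9745 genes 2351 passed in that fit, against 3546 without the covariate. The 2 members were Ppat at a log2 fold change of 0.24 (limma adjusted p = 0.00214) and Gmps at 0.21 (limma adjusted p = 0.0237). The median of the members was 0.02. Adsl was then at 0.10 (limma adjusted p = 0.207) and Prps1 at 0.12 (limma adjusted p = 0.2). Without the 3 smallest libraries together, which left 1 OHT library and 2 IACS libraries, Ppat passed at 0.22 (limma adjusted p = 0.0092) and Gmps, at 0.17, did not (limma adjusted p = 0.0598).

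**Figure D2:**
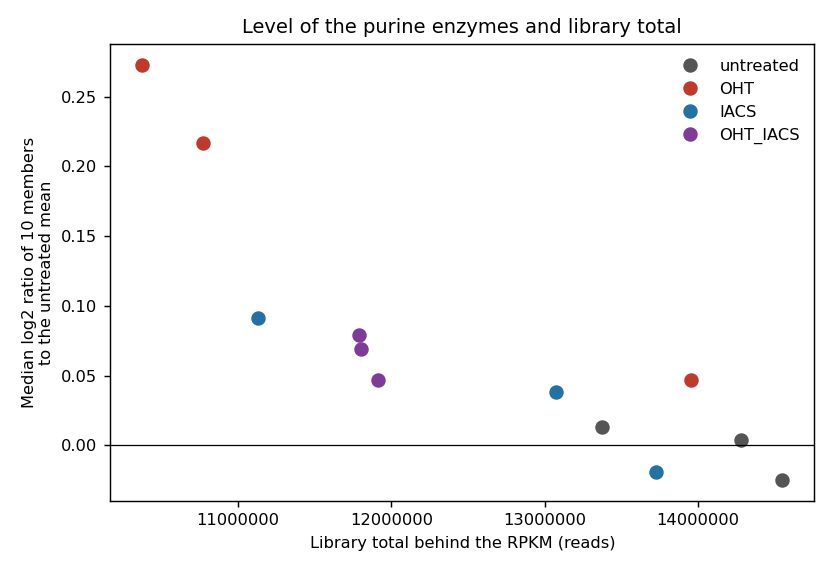
Median log2 ratio of the 10 members to their untreated mean (vertical axis) against the library total in reads (horizontal axis), 1 point per library and coloured by condition. The smallest libraries, OHT replicates 1 and 3, have the highest ratios, 0.27 and 0.22, and OHT replicate 2 lies among the untreated libraries in total, at a ratio of 0.05.

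Ppat and Paics share a start region. In GRCm38 Ppat lies on the minus strand (chr5:76913249-76951578) and Paics on the plus strand (chr5:76951302-76967509), head to head, and their annotated spans overlap by 277 bases. The libraries were stranded, but whether the counting used strand is not given in the sources used here. How reads in this overlap were assigned is therefore not known. Ppat passed after OHT at a log2 fold change of 0.36 and Paics, at 0.18, did not. The difference between them was not tested.

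The second comparison, IACS against untreated cells, asked how inhibition of complex I changed the pathway in nonprimed cells. None of the 10 members passed the test, where 15.9% of all genes did, and none had an unadjusted p under 0.05 (limma). With voom on the recovered reads the count was also 0. Log2 fold changes ran from -0.04 for Pfas to 0.11 for Prps1, with a median of 0.02.

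Prps1 measured 30.8, 28.9 and 29.7 RPKM with IACS-010759. It was the only member with all 3 libraries above the 3 untreated ones, where 19.9% of all genes were, and its log2 fold change of 0.11 had a 95% interval of -0.01 to 0.24 (limma adjusted p = 0.213). Ppat, at 30.7, 30.6 and 32.0 RPKM with the inhibitor, differed from untreated cells by 0.02 (95% interval -0.10 to 0.15). Gmps, at 19.7 to 20.5 RPKM, differed by -0.01 (95% interval -0.12 to 0.09). In both genes the conditions overlapped. Over the 10 members the widest interval was that of Impdh2, from -0.10 to 0.27 on the log2 scale, which leaves room for changes of that size.

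The third comparison, OHT_IACS against OHT, gave the response to the inhibitor in OHT-primed cells. Gmps and Ppat were lower, by 11.1% and 11.3%, and the other 8 members did not pass the test. The count of 2 of 10 compares with 23.7% of all genes in either direction and 11.8% of all genes lower. The members' median log2 fold change was -0.09, beside -0.01 for all genes. Without the 3 smallest libraries, which left 1 OHT library, Gmps stood at -0.09 (limma adjusted p = 0.352), Ppat at -0.03 (limma adjusted p = 0.728) and the median at 0.02. With voom 3 members passed as lower, Gart besides these 2, where 1143 of 9745 genes did.

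Gmps measured 20.7, 21.3 and 22.4 RPKM in OHT_IACS cells, with a log2 fold change of -0.17 (SE 0.049, limma adjusted p = 0.0244). It was the only member with all 3 libraries below the 3 OHT libraries, where 19.1% of all genes were. Ppat measured 36.0, 34.7 and 34.0 RPKM, which overlapped with OHT replicate 2, with a log2 fold change of -0.17 (SE 0.058, limma adjusted p = 0.0454). Gart had 43.6, 41.0 and 41.4 RPKM and a log2 fold change of -0.16 that missed the threshold (limma adjusted p = 0.0786), and Prps1 one of -0.14 (limma adjusted p = 0.1). The calls lay close to the threshold. Without OHT replicate 1 no member passed, with Gmps at -0.17 and Ppat at -0.13, and the same held without OHT replicate 3, with Gmps at -0.14 and Ppat at -0.15. No member passed without OHT_IACS replicate 1 or OHT_IACS replicate 2 either, whereas 7 passed as lower without OHT replicate 2. Of all 9745 genes 1550 passed as lower in that last fit, against 1146 with all libraries.

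The fourth comparison, OHT_IACS against IACS, gave the response to OHT in cells with the inhibitor. No member passed, where 26.5% of all genes did, and 2 had an unadjusted p under 0.05. Ppat was at 36.0, 34.7 and 34.0 RPKM against 30.7, 30.6 and 32.0, without overlap, and its log2 fold change of 0.17 lay at the threshold (95% interval 0.04 to 0.29, limma adjusted p = 0.0504). With voom on the recovered reads Ppat passed as higher and no other member did. Pfas, with 37.2, 34.9 and 35.2 RPKM against 31.4, 30.6 and 35.8, had a log2 fold change of 0.14 (limma adjusted p = 0.0976). Gmps was higher in all 3 OHT_IACS libraries than in the IACS libraries, with a log2 fold change of 0.10 (95% interval -0.01 to 0.20, limma adjusted p = 0.166). Ppat and Gmps were the 2 of 10 members without overlap in this direction, against 20.1% of all genes. Impdh2 measured 86.2, 87.6 and 89.2 RPKM in OHT_IACS cells against 85.4, 82.6 and 95.5 with the inhibitor alone, and its log2 fold change was 0.00 (95% interval -0.18 to 0.18).

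Whether the response to OHT differed with and without the inhibitor was tested as an interaction. None of the 10 members passed, where 0.144% of all genes did, and 3 had an unadjusted p under 0.05 (limma). These were Prps1 at -0.26 on the log2 scale (limma adjusted p = 0.244), Ppat at -0.19 (limma adjusted p = 0.352) and Gmps at -0.16 (limma adjusted p = 0.373). With voom the count was also 0. The OHT response of Prps1 was 0.19 without the inhibitor and -0.07 (95% interval -0.19 to 0.06) with it, and that of Gmps was 0.26 and 0.10, but these pairs of values were not shown to differ.

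**Figure D3:**
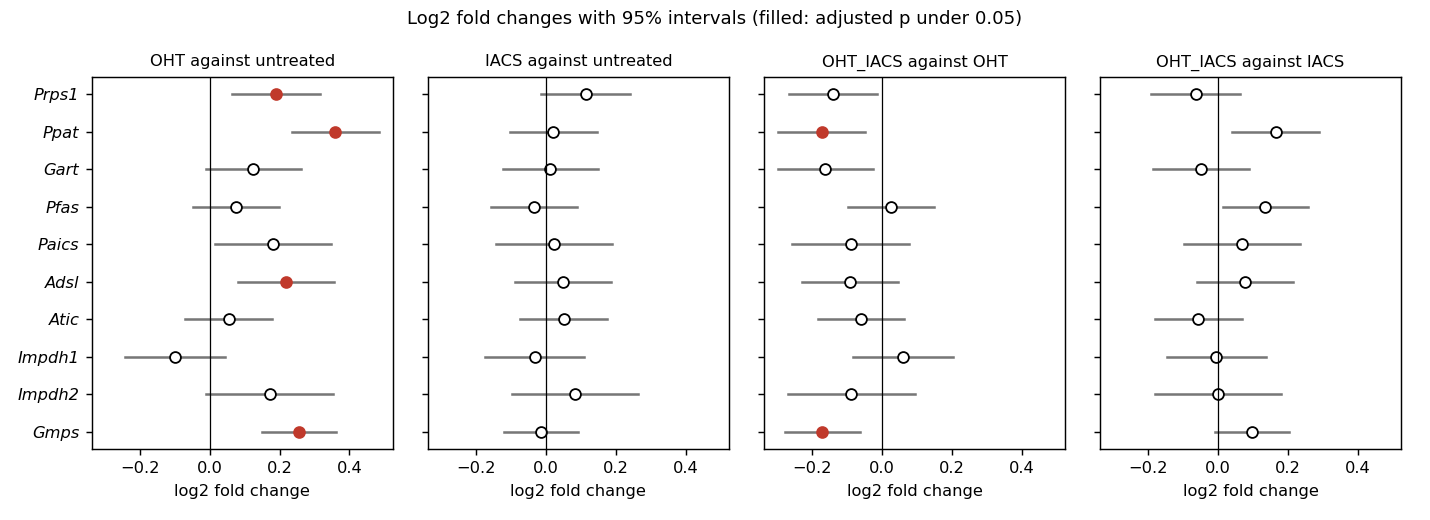
Log2 fold changes of the 10 members (horizontal axis) in the 4 comparisons with 95% intervals from limma, filled where the adjusted p was under 0.05. Ppat, Gmps, Adsl and Prps1 are filled to the right for OHT against untreated, none for IACS against untreated or OHT_IACS against IACS, and Ppat and Gmps to the left for OHT_IACS against OHT.

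Isozyme shares were set side by side because RPKM is per length. Prps1l3, listed at 33.6 RPKM in untreated cells, was left out of the share of Prps1. Impdh2 made up 87.0% ± 0.327 (SD, n = 3) of the IMP dehydrogenase RPKM in untreated cells, 88.8% ± 2.01 with OHT, 87.8% ± 1.49 with IACS-010759 and 87.9% ± 0.294 with both. Prps1 made up 51.1% ± 2.01 of the RPKM of Prps1 and Prps2, the other widely expressed PRPP synthetase, in untreated cells, 51.9% ± 0.521 with OHT, 55.1% ± 0.567 with IACS-010759 and 53.8% ± 2.4 with both. In 8 exact two-sided permutation tests the smallest p was 0.1, for the Prps1 share with IACS-010759 against untreated (3.96 percentage points higher), which is the lowest that 3 against 3 libraries allow, and no adjusted p was below 0.667.

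Among the genes around the members, the AMP branch held the pair Adss and Adssl1, isozymes of adenylosuccinate synthetase. Adss, the abundant one at a mean of 23.2 RPKM in untreated cells, did not pass in any of the 4 comparisons. Adssl1 measured 3.92, 4.19 and 4.56 RPKM in untreated cells, 3.09, 3.24 and 2.73 with OHT, 5.77, 6.89 and 5.91 with IACS-010759 and 4.47, 4.59 and 3.99 with both. It fell with OHT (log2 fold change -0.47, limma adjusted p = 0.0016) and rose with the inhibitor (0.54, limma adjusted p = 0.00187). It passed in the same directions in the presence of the other agent (-0.50 and 0.51). With the library total as a covariate it passed in all 4 comparisons. Without the 3 smallest libraries the fall with OHT (-0.37, limma adjusted p = 0.0589) and the rise with the inhibitor in OHT-primed cells (0.41, limma adjusted p = 0.0564) missed the threshold.

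Of the other 4 PRPP synthetase genes none passed with OHT or with IACS-010759 alone, where 36.4% and 15.9% of all genes did. Prps2 was lower in OHT_IACS than in OHT cells by 0.25 on the log2 scale, at 25.6, 24.1 and 23.6 RPKM against 30.3, 27.6 and 29.3, and Prpsap2, a regulatory partner of the synthetases, was lower in OHT_IACS than in IACS cells (-0.18, limma adjusted p = 0.0474). Both passed with the library total as a covariate, and neither passed without the 3 smallest libraries.

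The salvage genes, which rebuild nucleotides from free bases and nucleosides, had 2 of 5 higher with OHT and none lower, where 18.2% of all genes were higher. Adk, the adenosine kinase, rose from 12.4, 12.4 and 12.6 RPKM to 15.9, 14.4 and 15.7 (log2 fold change 0.29, limma adjusted p = 0.000318), and Hprt, which recovers hypoxanthine and guanine, from 42.1, 41.1 and 41.5 to 52.8, 43.8 and 52.2 (0.25, limma adjusted p = 0.00972). The list's median was 0.11 beside 0.01 for all genes. With IACS-010759 Adk rose by 0.15 and Dck, the deoxycytidine kinase that also phosphorylates purine deoxynucleosides, fell by 0.28. In OHT-primed cells Dck fell by 0.38 with the inhibitor. In OHT_IACS against IACS cells none of the 5 passed, where 26.5% of all genes did. The call of Hprt with OHT was lost with the library total as a covariate (0.10, limma adjusted p = 0.0624), as was that of Adk with IACS-010759 (0.11, limma adjusted p = 0.125), while Adk with OHT passed there too (0.23, limma adjusted p = 0.0104).

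Among 7 genes that phosphorylate nucleotides, 1 was higher and 1 lower with OHT, where 36.4% of all genes passed. With IACS-010759 alone 1 was lower and none higher, where 15.9% of all genes passed. Ak4, a mitochondrial adenylate kinase, moved in opposite directions with the agents. It measured 26.1, 25.2 and 26.0 RPKM in untreated cells, 33.8, 30.9 and 32.3 with OHT, 20.2, 20.7 and 20.7 with IACS-010759 and 25.2, 24.6 and 24.7 with both. Its log2 fold change was 0.33 with OHT (limma adjusted p = 7.5e-05) and -0.33 with the inhibitor (limma adjusted p = 0.000271), and it passed in the same directions beside the other agent (0.27 and -0.38). Ak1, the cytosolic adenylate kinase, fell by 0.42 with OHT and by 0.39 in OHT_IACS against IACS cells.

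Of the genes of purine breakdown and interconversion, 4 of the 12 tested were lower with OHT and none higher, where 18.2% of all genes were lower. The median log2 fold change of the 12 was -0.09. Of 15 listed, Xdh, Ampd1 and Nt5e did not reach 1 RPKM. The 2 with the smallest adjusted p were Ada, the adenosine deaminase, and Nt5c2, a cytosolic purine nucleotidase. Ada went from 8.08, 8.39 and 8.11 RPKM in untreated cells to 5.66, 4.14 and 4.69 with OHT, a log2 fold change of -0.76 (limma adjusted p = 5.75e-05). Nt5c2 went from 9.31, 9.14 and 9.57 RPKM to 6.94, 6.33 and 7.61 (-0.42, limma adjusted p = 0.000608). In OHT_IACS against IACS cells 4 of the 12 were again lower, where 14.2% of all genes were. IACS-010759 alone lowered 3 of the 12, where 7.74% of all genes were lower. Ada, at 5.91, 5.82 and 5.02 RPKM with the inhibitor, fell by 0.55 and Gmpr, the GMP reductase that returns GMP to IMP, by 0.37. With the inhibitor in OHT-primed cells 11.9% of all genes were higher and 11.8% lower. Of the 12, 2 were higher and 1, Itpa, a pyrophosphatase that clears inosine triphosphate, was lower (-0.32, limma adjusted p = 0.0154). These 3 passed with the library total as a covariate too, where 2 of the 12 were higher and 3 lower. They did not pass without the 3 smallest libraries, which left 1 OHT library.

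The purine ring takes carbons from 10-formyl-tetrahydrofolate, at the steps of Gart and Atic, and 3 of 6 genes that supply this cofactor were higher with OHT, where 18.2% of all genes were. Among these 3, Mthfd1 did not pass with the library total as a covariate (0.10, limma adjusted p = 0.134) or without the 3 smallest libraries. Mthfd2, the mitochondrial dehydrogenase of this route, measured 43.5, 41.3 and 41.8 RPKM in untreated cells, 57.1, 48.6 and 56.7 with OHT, 59.5, 58.0 and 63.5 with IACS-010759 and 64.8, 63.9 and 66.6 with both. It rose by 0.36 with OHT, or by 0.21 with the covariate, and by 0.51 with the inhibitor (limma adjusted p = 0.000232). Mthfd1l, the mitochondrial formate producer, rose by 0.35 with OHT and by 0.30 with the inhibitor, which made 2 of 6 higher with IACS-010759, where 8.15% of all genes were. The members that use the cofactor, Gart and Atic, had log2 fold changes of 0.01 and 0.05 with IACS-010759.

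For comparison, 1 of 5 genes of de novo pyrimidine synthesis passed with OHT, where 36.4% of all genes did. This was Ctps, the CTP synthetase, at 29.0, 29.1 and 27.5 RPKM in untreated cells and 39.0, 33.6 and 38.3 with OHT (log2 fold change 0.37, limma adjusted p = 0.000419). None of the 5 passed with IACS-010759 alone, where 15.9% of all genes did. In OHT_IACS against IACS cells Ctps and Cad, which starts the pyrimidine route, were higher, by 0.21 and 0.36. No gene of the 7 lists around the members passed the interaction test, where 0.144% of all genes did.

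**Figure D4:**
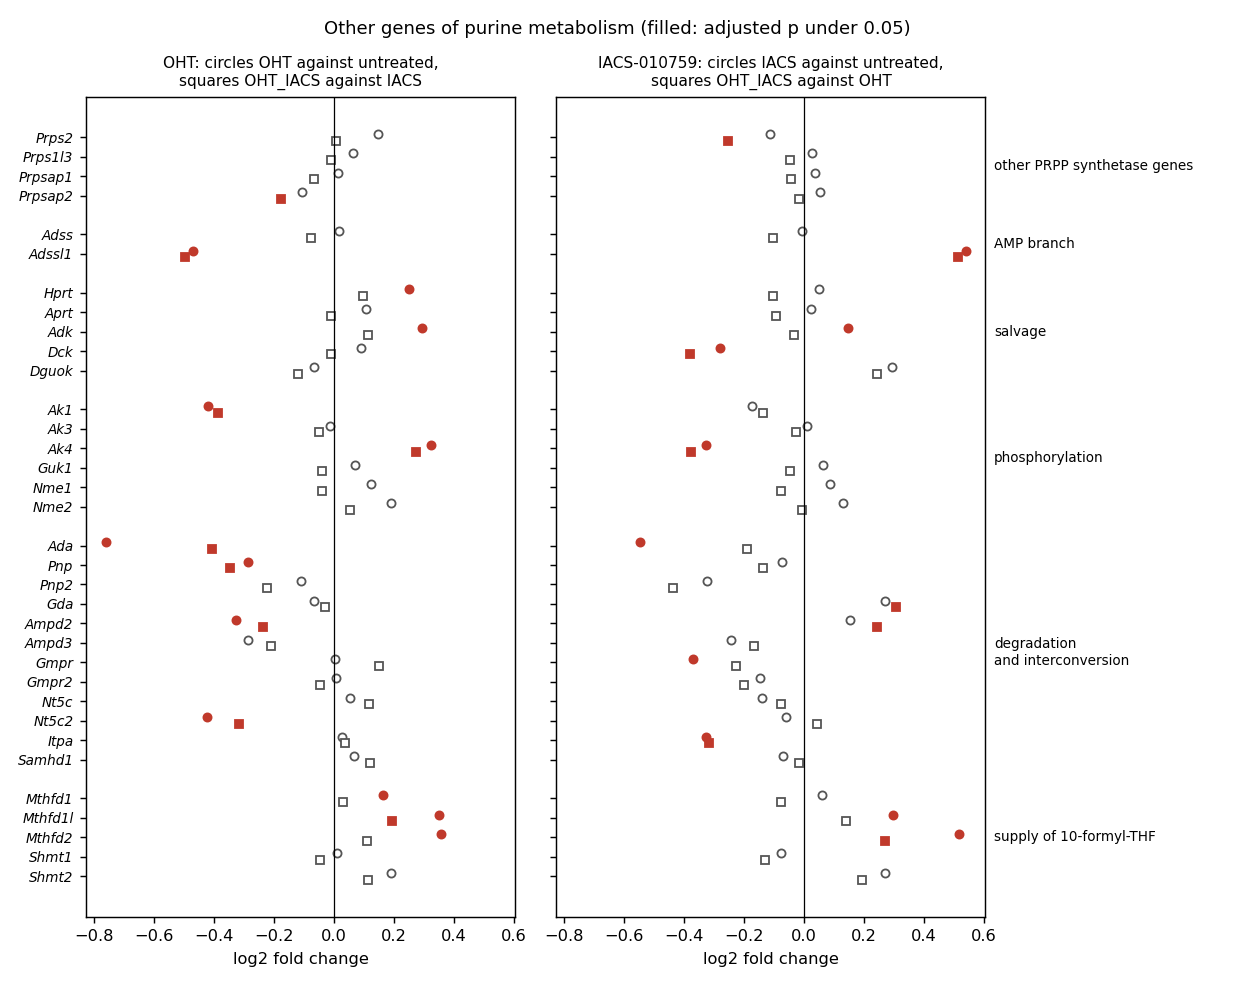
Log2 fold changes (horizontal axis) of other genes of purine metabolism that are reported here, by list, for OHT (left) and IACS-010759 (right), each without (circles) and with (squares) the other agent, filled where the limma adjusted p was under 0.05. Adssl1 and Ak4 are filled in both panels, on opposite sides of 0.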

How the data were processed

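RNA-seq libraries of 12 FL5.12 MycER cultures were grouped by their labels into 4 conditions of 3 replicates. The authors removed ribosomal RNA and sequenced stranded libraries. The authors' processing notes name TopHat2 2.0.8, SAMtools, featureCounts 1.4.5-p1, DESeq2 and the build mm9. The authors deposited RPKM per gene and library. The deposited log2 fold changes of 3 comparisons, and the p-values deposited beside them, were not used. Per the labels the cells grew in normal medium, whereas the methods describe low glucose for experiments with the inhibitor.

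Reads, gene lengths and library totals were recovered from the RPKM steps. For all 15451 genes above 0 the reads came out whole within 0.001 read. RPKM were scaled by the median ratio. Genes with at least 1 RPKM in at least 3 libraries were tested (9745) with limma 3.58.1 (R 4.3.3) on log2(RPKM + 0.1), with a mean-variance trend and all 12 libraries in 1 fit. Fold changes are on that scale, which understates the change of low genes. Tests were two-sided at 0.05, adjusted (Benjamini-Hochberg) per comparison. Voom on the recovered reads, other scalings, filters and pseudocounts, a replicate block, the library total as a covariate and libraries left out were alternatives. Leaving out the 3 smallest libraries together was added after seeing the data. Fit and recovery were tested on simulated data.

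Replicates of a condition differed beyond sampling noise in all 12 pairs. In genes under 0.1 reads per base the chi-square per gene was 1.11 to 3.4. The study describes the replicates as biological. The members and lists were chosen with earlier results of these data known. All members were named, and from the lists every gene that passed, or the 2 with the smallest adjusted p where more passed, except for a few genes not reported here. Promoters came from RefSeq and coordinates from RefSeq and GENCODE vM21, both GRCm38 and matched by symbol, not from mm9. Python 3.11.15, pandas 2.3.3, scipy 1.17.1 and matplotlib 3.10.9 were used.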

Additional observations from a re-analysis of the deposited data

How the results depend on the processing

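Of 1140 values of a member under an alternative, 1075 kept their side of the threshold, 31 passed only there, 33 no longer passed, and 1 passed only there with the opposite sign to a value of 0.00 that had not passed, Impdh2 in OHT_IACS against IACS with the library total as a covariate (-0.063, limma adjusted p = 0.024). Another 54 changed sign without a call in either fit. Without counting the fit that leaves out the 3 smallest libraries, Ppat and Gmps passed with OHT under 22 of 22 alternatives, Prps1 under 18 and Adsl under 16, and in that fit Ppat alone passed. With IACS-010759 alone no member passed in any. For OHT against untreated, where 4 passed, 2 did with the covariate, 6 with voom and on RPKM as deposited, 3 with only the compared groups and 1 (Ppat) without the 3 smallest libraries, which left 1 OHT library assumed to vary like the others, and leaving out 1 library gave 2 (without untreated replicate 1, OHT replicate 1 or OHT replicate 3) to 7 (without OHT replicate 2). For OHT_IACS against OHT, where 2 passed, the count was 1 without a filter, 4 with the covariate, 3 with voom, 0 with only the compared groups, 0 without the 3 smallest libraries and 0 to 7 with 1 library left out. For OHT_IACS against IACS, where 0 passed, it was 1 at a pseudocount of 1, with the stricter filter of 5 RPKM, on RPKM as deposited, after quantile normalization, with only the compared groups and with voom, 3 with the covariate (Ppat higher, Atic and Impdh2 lower), 2 without the 3 smallest libraries (Ppat and Pfas higher) and 0 to 1 with 1 library left out. The interaction gave 0 to 1 with 1 library left out (1, Ppat, without OHT replicate 2). Calls over all 9745 genes moved as well. With OHT they went from 3546 to 2351 with the covariate, 3838 with voom and 4126 without OHT replicate 2. For OHT_IACS against OHT they went from 2310 to 2778 with the covariate, 1591 with only the compared groups and 2995 without OHT replicate 2. For OHT_IACS against IACS they went from 2585 to 2830 with the covariate, 2791 with voom and 2486 with only the compared groups. For the interaction they went from 14 to 149 without OHT replicate 2. The cause was not tested. With the replicate number as a block the counts were 4, 0, 2, 1 (Ppat) and 0 in the order of the report. Same-numbered libraries correlated from -0.172 to 0.104 in their deviations from the group means, and differently numbered ones from -0.182 to 0.168. The numbers thus gave no sign of pairing, but this cannot show whether cultures were handled together. After quantile normalization the median log2 fold change of the members with OHT was 0.04, beside 0.18. Within conditions the reads of dense genes rose less than in proportion to the library total, for a reason that was not tested. Between replicates the chi-square per gene was largest for OHT 1 with 2 (4.84) and IACS 2 with 3 (2.71), pairs with unlike totals. Library total and other differences between these replicates cannot be told apart. The members' median was highest in the 2 smallest libraries, both OHT, so that library total and OHT overlap in part.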
